A study of Mus musculus with 5 samples.

Results

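The HoxD cluster was examined through all 9 of its genes, Hoxd13, Hoxd12, Hoxd11, Hoxd10, Hoxd9, Hoxd8, Hoxd4, Hoxd3 and Hoxd1, out of 20665 protein coding genes annotated on the autosomes. The members were taken by name, and every CpG cytosine from the first base of Hoxd13 to the last base of Hoxd1 was used, at chr2:74668225-74765142 of mm10. The assay was reduced representation bisulfite sequencing, a method that reads the methylation of CpG cytosines and covers CpG-rich DNA best. The control was muscle, and 4 teratomas, tumours of differentiated tissue that arise from pluripotent cells, came from embryonic stem cells put into tetraploid embryos after growth under conditions labelled P5_2iL, P5_2iL_F, P5_a2iL_1 and P5_LCDM_1. The labels give the same strain, C57BL/6x129S6, for all 5 samples, no age, and neither the muscle taken nor the meaning of the condition names. Each group was 1 library, so there was no replicate check, no test was possible, and every difference below is between libraries and not between conditions.

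Hox genes encode homeodomain transcription factors that give cells their position along the body axis. In the HoxD cluster the genes stand in the order in which they act, with Hoxd1 and Hoxd3 towards the head and Hoxd9 to Hoxd13 in the trunk, limbs and genitalia. The cluster is rich in CpG islands, which in cells that do not use it are usually covered by Polycomb proteins and carry little DNA methylation, whereas gene bodies can gain methylation in differentiated tissue.

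The starts of 4 of the genes are printed because they show the contrasts that follow. At the starts of Hoxd12 and Hoxd4 the P5_LCDM_1 library had the highest level, at the start of Hoxd10 it was low while P5_a2iL_1 was high, and at the start of Hoxd1 all 5 libraries were low. The letters are from RefSeq on GRCm38.p6, the same build as mm10, on the plus strand, from 250 bases before to 50 bases after the annotated start. They cover chr2:74674763-74675062 for Hoxd12, chr2:74691641-74691940 for Hoxd10, chr2:74721728-74722027 for Hoxd4 and chr2:74762730-74763029 for Hoxd1. Capitals mark each CpG with a cytosine listed in all 5 libraries.
Hoxd12: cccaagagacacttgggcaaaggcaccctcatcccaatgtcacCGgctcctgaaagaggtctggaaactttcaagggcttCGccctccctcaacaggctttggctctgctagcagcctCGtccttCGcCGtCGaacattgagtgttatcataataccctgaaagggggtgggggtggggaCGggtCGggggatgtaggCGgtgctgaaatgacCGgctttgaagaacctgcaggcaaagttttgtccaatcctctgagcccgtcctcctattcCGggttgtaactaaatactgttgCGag
Hoxd10: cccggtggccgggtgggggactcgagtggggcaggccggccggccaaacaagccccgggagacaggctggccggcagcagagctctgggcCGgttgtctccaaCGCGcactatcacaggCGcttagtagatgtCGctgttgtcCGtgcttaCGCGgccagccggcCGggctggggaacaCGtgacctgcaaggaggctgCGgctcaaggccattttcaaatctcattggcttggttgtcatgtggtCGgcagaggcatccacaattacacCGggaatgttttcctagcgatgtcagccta
Hoxd4: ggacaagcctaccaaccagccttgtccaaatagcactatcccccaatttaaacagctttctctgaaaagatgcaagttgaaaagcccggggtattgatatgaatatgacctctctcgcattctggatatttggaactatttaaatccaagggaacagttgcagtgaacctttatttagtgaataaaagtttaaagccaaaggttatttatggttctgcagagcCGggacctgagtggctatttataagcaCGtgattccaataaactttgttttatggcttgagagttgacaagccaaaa
Hoxd1: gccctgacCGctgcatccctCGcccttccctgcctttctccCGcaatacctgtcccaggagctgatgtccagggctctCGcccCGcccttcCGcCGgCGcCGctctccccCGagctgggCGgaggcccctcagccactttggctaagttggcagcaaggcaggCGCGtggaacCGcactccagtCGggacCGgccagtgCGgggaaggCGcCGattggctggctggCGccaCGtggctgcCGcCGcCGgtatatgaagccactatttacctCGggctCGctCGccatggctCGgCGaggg

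In the Hoxd12 sequence, which holds 13 CpGs, the mean over 13 cytosines was 30.3% in P5_LCDM_1, 9.51% in muscle, 15.6% in P5_2iL, 13.4% in P5_2iL_F and 11.7% in P5_a2iL_1. The Hoxd4 sequence holds only 4 CpGs, and its 3 measured cytosines averaged 7.58% in muscle, 13.3% in P5_2iL, 11.7% in P5_2iL_F, 5.57% in P5_a2iL_1 and 45.8% in P5_LCDM_1. In both, P5_LCDM_1 lay above the other 4 libraries, which stayed close together. The Hoxd1 sequence, with 29 CpGs, averaged between 1.5% in P5_LCDM_1 and 5.71% in P5_2iL_F over 50 cytosines. The Hoxd10 sequence holds 22 CpGs, and its 16 measured cytosines averaged 0% in muscle, 9.58% in P5_2iL, 7.81% in P5_2iL_F, 44.9% in P5_a2iL_1 and 3.35% in P5_LCDM_1. The level of P5_a2iL_1 there came from 7 neighbouring cytosines of 1 strand, at bases 104 to 154 of the printed sequence, each listed at 100%. Most of the other cytosines of that library were listed at 0%.

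Read counts do not stand beside the percents in the files, so how many reads lie behind a value is unknown and no interval could be set. The libraries listed between 4017125 cytosines in muscle and 5323090 in P5_2iL_F, and 3079380 autosomal cytosines were listed in all 5. Within the cluster, muscle listed 2156 cytosines, P5_2iL 2635, P5_2iL_F 2611, P5_a2iL_1 2405 and P5_LCDM_1 2487, of which 1885 were shared by all 5 and carry the values below. The error of a single value was taken from 571 CpGs read on both strands, and the spread per cytosine was 9.61 percentage points in P5_2iL, 10.02 in P5_2iL_F, 11.5 in P5_a2iL_1, 12.1 in P5_LCDM_1 and 14.4 in muscle. The strands share 1 library, so this error leaves out the spread between animals and between preparations. In whole tissue, a larger share of methylated cells and a higher level within the same cells cannot be told apart.

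As a check of the labels, 18 genes of skeletal muscle were set beside 10 of leukocytes, of which 9 were measured. The median level of the muscle genes was 43.0% in the muscle library and 80.1%, 75.5%, 64.8% and 57.0% in P5_2iL, P5_2iL_F, P5_a2iL_1 and P5_LCDM_1. The median of the leukocyte genes was 63.1% in muscle and 47.9%, 51.4%, 58.0% and 56.9% in the same 4 teratomas. The libraries thus differed at genes of particular cell types, with P5_LCDM_1 nearest to muscle at the muscle genes, and the part of cell makeup in the HoxD differences was not tested.

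Over the whole cluster, P5_LCDM_1 was more methylated than muscle and the other 3 teratomas were less methylated. The mean level of P5_LCDM_1 was 23.3%, that of muscle 15.2%, and those of P5_2iL, P5_2iL_F and P5_a2iL_1 were 10.6%, 10.5% and 10.6%. The difference from muscle was 8.16 percentage points in P5_LCDM_1, and -4.55, -4.64 and -4.56 in P5_2iL, P5_2iL_F and P5_a2iL_1. Over all autosomes every teratoma lay above muscle, by 6.87 points in P5_2iL, 6.27 in P5_2iL_F, 3.87 in P5_a2iL_1 and 1.76 in P5_LCDM_1. At HoxD the order of the teratomas was therefore not that of the genome, where P5_LCDM_1 was the teratoma nearest to muscle.

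P5_LCDM_1 had the largest share of intermediate levels, in the cluster as over all autosomes. In that library 37.0% of the 1885 cytosines had a level of 20% to 80% and 4.56% were above 80%. In muscle these shares were 18.6% and 6.31%, in P5_2iL 16.6% and 1.96%, in P5_2iL_F 17.7% and 1.49%, and in P5_a2iL_1 18.5% and 1.49%. Over all autosomes the share from 20% to 80% was 26.8% in P5_LCDM_1, 21.7% in muscle, 13.4% in P5_2iL, 15.4% in P5_2iL_F and 22.8% in P5_a2iL_1, and in HoxA and HoxB it was 26.8% and 26.5% in P5_LCDM_1. In HoxC P5_LCDM_1 did not have the largest such share, with 22.1% against 25.1% in P5_a2iL_1 and 23.0% in P5_2iL_F. The median cytosine of HoxD stood at 10.7% in P5_LCDM_1 and at 0% in the other 4 libraries. Taken singly, 637 of the 1885 cytosines (33.8%) had their highest level in P5_LCDM_1, against 7.95% of all autosomal cytosines.

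**Figure D1:**
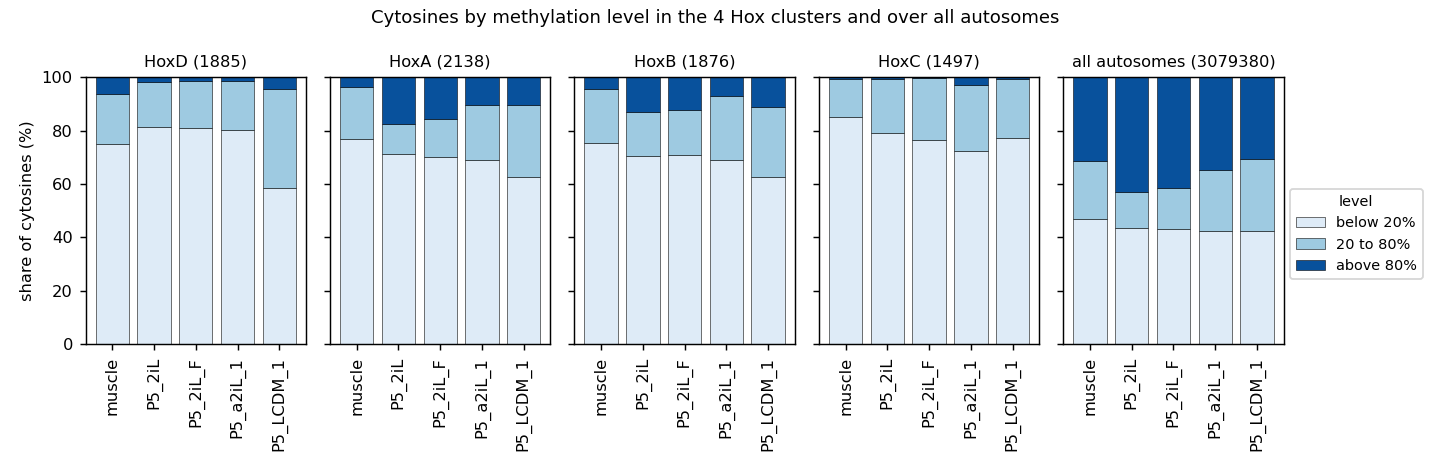
Share of CpG cytosines (vertical axis, percent) with a level below 20%, from 20% to 80% and above 80% in each of the 5 libraries, for the 4 Hox clusters and for all autosomes, with the number of cytosines in brackets. In HoxD the middle class holds 37.0% of cytosines in P5_LCDM_1 and at most 18.6% in the other libraries.

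To place these differences, the cluster was divided into 98 tiles of 1 kb, of which 49 held 3 or more shared cytosines. A tile was called when its mean level differed from muscle by 25 percentage points or more. P5_LCDM_1 was called higher in 11 of the 49 tiles, against 9.35% of the 208207 measured autosomal tiles, and lower in 2 (6.74% of all). The other teratomas showed the opposite. P5_2iL was called lower in 11 tiles (3.09% of all) and higher in 1 (17.4%), P5_2iL_F lower in 11 (2.91%) and higher in 3 (16.1%), and P5_a2iL_1 lower in 12 (2.88%) and higher in 0 (11.1%). At a size of 10 points, P5_LCDM_1 was higher in 22 tiles (22.7% of all) and lower in 6 (23.1%), while P5_2iL was lower in 18 (7.88%), P5_2iL_F in 19 (8.2%) and P5_a2iL_1 in 18 (12.1%). Counting signs alone, P5_LCDM_1 lay above muscle in 36 tiles (48.4% of all), P5_2iL in 21 (70.8%), P5_2iL_F in 21 (68.9%) and P5_a2iL_1 in 19 (58.4%). All 4 teratomas were above muscle in 15 tiles (34.3% of all), and the 3 teratomas other than P5_LCDM_1 were all below it in 25 (15.5%). The median tile difference was 7.55 points in P5_LCDM_1 and -2.99, -3.65 and -5.87 in P5_2iL, P5_2iL_F and P5_a2iL_1, where the autosomal medians were 0, 5.33, 4.53 and 1.63.

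All 3 other teratomas were at least 25 points below muscle in 8 tiles, against 0.885% of autosomal tiles. In 7 of those 8 P5_LCDM_1 lay within 20 points of muscle, as it did in 35.6% of the autosomal tiles of that kind. P5_LCDM_1 was called higher while another teratoma was called lower in 0 tiles, and in 0.0985% of autosomal tiles. Of the 11 tiles with P5_LCDM_1 called higher, 6 had 3 or more CpGs read on both strands, and in 5 of them the excess was at least 20 points on each strand. Over the 32 tiles with as many pairs, the sign of the P5_LCDM_1 difference was the same on both strands in 28.

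**Figure D2:**
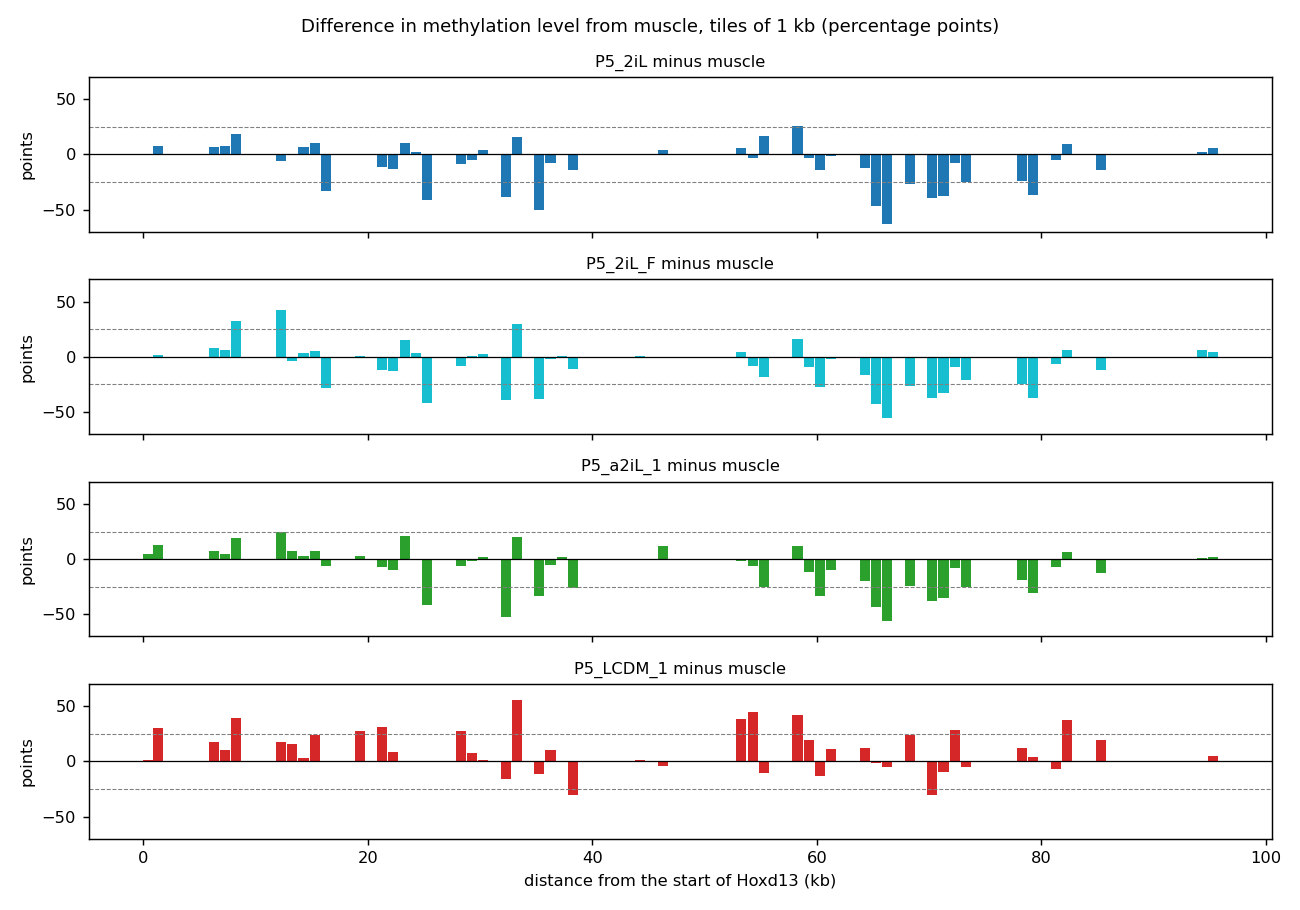
Mean methylation level of each teratoma minus muscle (vertical axis, percentage points) in the 49 measured tiles of 1 kb along the HoxD cluster (horizontal axis, distance from the start of Hoxd13 in kb), with dashed lines at 25 points either way. P5_LCDM_1 passes the upper line in 11 tiles, and the other 3 teratomas pass the lower line in 11 or 12, mostly within Hoxd3.

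P5_LCDM_1 lay above muscle while all 3 other teratomas lay below it in 14 of the 49 tiles, or 28.6%, against 2.07% of autosomal tiles. The reverse arrangement, P5_LCDM_1 below and the other 3 above, was found in 0 tiles of the cluster and in 13.9% of autosomal tiles. When P5_LCDM_1 had to exceed muscle by at least 5 points, 12 tiles were left (0.785% of all), with at least 10 points 10 were left (0.433%), and with at least 5 points in each direction 8 were left (0.376%). Of the 14 tiles, 9 had 3 or more CpGs read on both strands, and 5 of those kept the arrangement on each strand taken alone.

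In these 14 tiles the median level of P5_LCDM_1 was 47.5%, that of muscle 21.1%, and those of P5_2iL, P5_2iL_F and P5_a2iL_1 were 10.6%, 8.80% and 9.85%. The excess of P5_LCDM_1 over muscle had a median of 16.0 points and ran from 0.744 to 44.9. Of their 452 cytosines, 76.5% had a level of 20% to 80% in P5_LCDM_1, against 38.3% in muscle and 20.8% to 23.5% in the other teratomas. Their number of shared cytosines varied, since 7 of them held under 20, 2 held 20 to 49 and 5 held 50 or more. Tile differences at the limit of the arrangement were small. Just inside, the tile at chr2:74693001-74694000 had 42.4% in P5_LCDM_1 and 41.7% in muscle. Just outside, the tile at chr2:74733001-74734000 had 51.2% and 52.2%, and the tile at chr2:74684001-74685000 had 41.1% and 41.7%. The former had the arrangement on each strand over its 7 CpGs read on both strands.

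**Figure D3:**
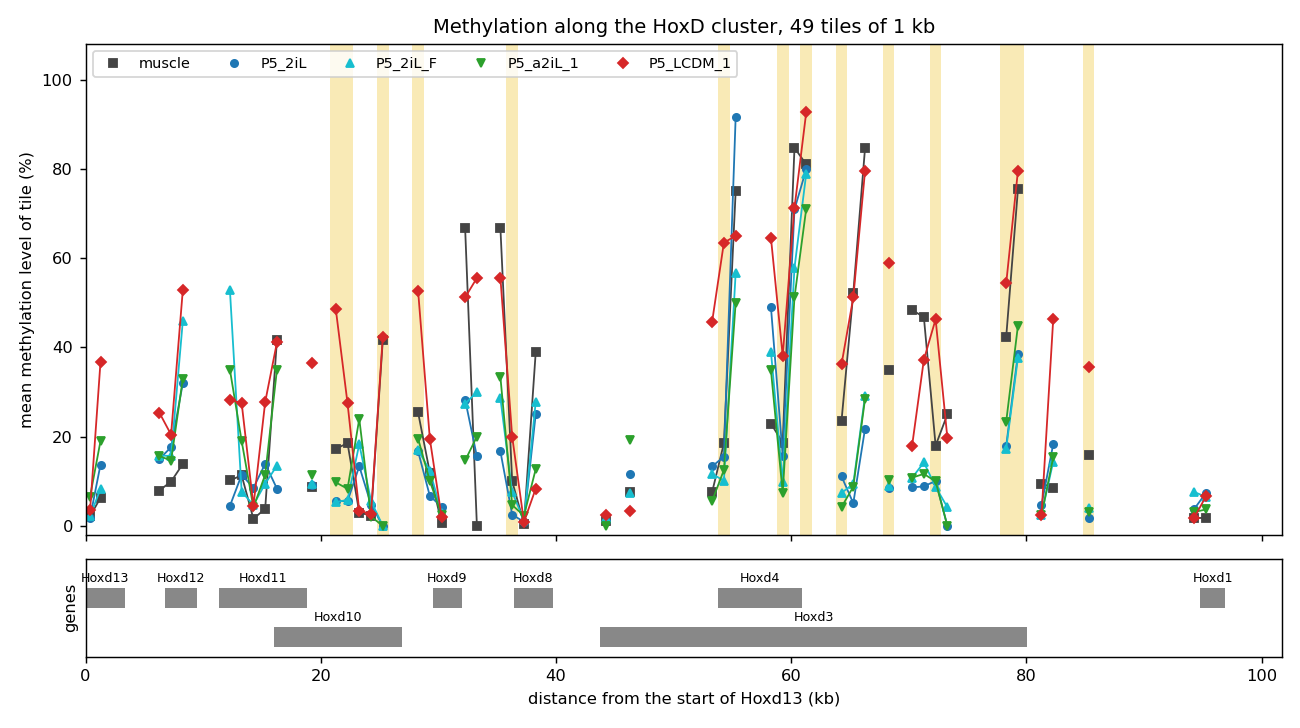
Mean methylation level (vertical axis, percent) of the 49 measured tiles of 1 kb along the HoxD cluster (horizontal axis, distance from the start of Hoxd13 in kb) in the 5 libraries, with the 9 genes drawn to scale. Lines join adjacent measured tiles, and yellow bands mark the 14 tiles with P5_LCDM_1 above muscle and the other 3 teratomas below, 8 of which lie within Hoxd3.

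The 14 tiles lay in 3 stretches, and muscle was more methylated in the middle stretch than in the first and the last. From Hoxd13 to the end of Hoxd8 (1021 cytosines), P5_LCDM_1 had a mean of 14.2%, muscle 7.03%, P5_2iL 8.22%, P5_2iL_F 9.04% and P5_a2iL_1 9.54%, and 5 of 25 tiles had the arrangement. From there to the end of Hoxd3 (534 cytosines), P5_LCDM_1 had 45.7%, muscle 35.7%, P5_2iL 17.1%, P5_2iL_F 15.4% and P5_a2iL_1 15.8%, and 8 of 19 tiles had it. From Hoxd3 to the end of Hoxd1 (330 cytosines), P5_LCDM_1 had 15.4%, muscle 7.15%, P5_2iL 7.49%, P5_2iL_F 7.19% and P5_a2iL_1 5.40%, and 1 of 5 tiles had it. P5_LCDM_1 was thus the highest library in all 3 stretches. The means of the other teratomas lay within 3 points of muscle in the first and the last stretch and far below it around Hoxd3, where muscle itself was methylated.

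The genes acting at the rear of the embryo were low in muscle, and P5_LCDM_1 was raised in part of them. Hoxd13, needed for digits and external genitalia, averaged 2.87% in muscle, 2.45% in P5_2iL, 2.64% in P5_2iL_F, 9.13% in P5_a2iL_1 and 5.38% in P5_LCDM_1 over 138 cytosines of the gene with 1000 bp on both sides. All libraries were under 10% there. The tile at chr2:74669001-74670000 within it, with 6 cytosines, stood at 36.8% in P5_LCDM_1 against 6.30% in muscle and 8.30% to 19.03% in the other teratomas.

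Hoxd12, a limb gene, averaged 9.87% in muscle, 18.0% in P5_2iL, 16.98% in P5_2iL_F, 15.5% in P5_a2iL_1 and 22.4% in P5_LCDM_1 over 116 cytosines. Here all 4 teratomas lay above muscle, and P5_LCDM_1 was the highest. In the tile at chr2:74676001-74677000, with 5 cytosines, muscle had 13.9%, P5_2iL 32%, P5_2iL_F 46%, P5_a2iL_1 33.02% and P5_LCDM_1 52.9%.

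Hoxd11, which acts with Hoxa11 in the forearm and kidney, averaged 5.67% in muscle, 9.41% in P5_2iL, 9.83% in P5_2iL_F, 10.6% in P5_a2iL_1 and 17.9% in P5_LCDM_1 over 305 cytosines. The 4 teratomas were again all above muscle. Its tile with most shared cytosines, 154 at chr2:74682001-74683000, was low in every library, between 1.57% in muscle and 8.5% in P5_2iL. In the tile beside it, at chr2:74683001-74684000 with 46 cytosines, P5_LCDM_1 had 27.8% against 3.84% in muscle, and the excess was 34.7 points on one strand and 25.6 on the other. At chr2:74680001-74681000, with 20 cytosines, P5_2iL_F was the highest, at 52.9% against 10.2% in muscle, 4.45% in P5_2iL, 35.01% in P5_a2iL_1 and 28.3% in P5_LCDM_1.

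Hoxd10, which helps to specify motor neurons of the lumbar spinal cord, averaged 8.53% in muscle, 8.55% in P5_2iL, 10.4% in P5_2iL_F, 12.8% in P5_a2iL_1 and 22.7% in P5_LCDM_1 over 213 cytosines, 88 of which also belong to the Hoxd11 window. P5_LCDM_1 stood apart before the start printed above, within the longer annotated gene, and not at that start. In the shared tile at chr2:74687001-74688000, with 51 cytosines, it had 36.6% against 8.81% in muscle, 9.23% in P5_2iL, 9.30% in P5_2iL_F and 11.3% in P5_a2iL_1. At chr2:74689001-74690000, with 16 cytosines, it had 48.6%, muscle 17.2%, P5_2iL 5.54%, P5_2iL_F 5.29% and P5_a2iL_1 9.75%. That tile is one of 3 in Hoxd10 with P5_LCDM_1 above muscle and the rest below, beside chr2:74690001-74691000 (8 cytosines, 27.5% against 18.5%) and the tile with 4 cytosines just inside the limit.

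The tile that holds the Hoxd10 start, at chr2:74691001-74692000 with 56 cytosines, showed another order. P5_a2iL_1 was highest at 24.0%, followed by P5_2iL_F at 18.3% and P5_2iL at 13.4%, while P5_LCDM_1 at 3.29% lay beside muscle at 2.95%. Over the 11 CpGs of that tile read on both strands this order was not kept. The difference from muscle was 7.01 points on one strand and -0.62 on the other in P5_a2iL_1. It was 14.2 and 5.08 in P5_2iL_F, and -2.42 and 14.3 in P5_2iL. On the shared edge of Hoxd10 and Hoxd11, at chr2:74684001-74685000 with 9 cytosines, muscle (41.7%), P5_LCDM_1 (41.1%) and P5_a2iL_1 (35%) lay above P5_2iL (8.33%) and P5_2iL_F (13.5%).

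Hoxd9, active in the trunk and forelimb, averaged 12.5% in muscle, 8.64% in P5_2iL, 10.2% in P5_2iL_F, 8.02% in P5_a2iL_1 and 18.1% in P5_LCDM_1 over 197 cytosines. Of the teratomas only P5_LCDM_1 was above muscle, and this depended on the window. Without the flanks all 4 lay above, by 3.37 points in P5_2iL, 3.61 in P5_2iL_F, 3.20 in P5_a2iL_1 and 2.38 in P5_LCDM_1, and with the first strand of each CpG alone P5_LCDM_1 was at -0.34 points. The tile with most cytosines, 91 at chr2:74698001-74699000, had at most 4.30% in any library. At chr2:74700001-74701000, with 18 cytosines, muscle had 66.7% and P5_LCDM_1 51.2%, while P5_2iL had 28.3%, P5_2iL_F 27.4% and P5_a2iL_1 14.6%.

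On either side of Hoxd9 the P5_LCDM_1 level was also raised. Before it, at chr2:74696001-74697000 with 17 cytosines, P5_LCDM_1 had 52.7% against 25.4% in muscle and 16.7% to 19.5% in the other teratomas. The excess there was 4.93 points on one strand and 49.7 on the other over 7 CpGs. After it, at chr2:74701001-74702000 with 5 cytosines, it had 55.6% against 0% in muscle, 15.6% in P5_2iL, 30% in P5_2iL_F and 20% in P5_a2iL_1. This was the tile with the widest gap between P5_LCDM_1 and muscle in the cluster.

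Hoxd8, a trunk gene, was low throughout, at 3.94% in muscle, 2.07% in P5_2iL, 3.39% in P5_2iL_F, 3.64% in P5_a2iL_1 and 4.38% in P5_LCDM_1 over 150 cytosines. Its order of libraries followed the arrangement, but the excess of P5_LCDM_1 was 0.440 points, and it was -6.01 with the first strand of each CpG alone. With the second strand alone P5_2iL, P5_2iL_F and P5_a2iL_1 lay above muscle, by 2.03, 1.20 and 2.65 points. Of the Hoxd8 cytosines, 122 lay in the tile at chr2:74705001-74706000, where every library had at most 2.26%. The tile before it, at chr2:74704001-74705000 with 20 cytosines, had the arrangement, with 20% in P5_LCDM_1, 10% in muscle and 2.50% to 7.56% in the others. At chr2:74706001-74707000, with 6 cytosines, P5_LCDM_1 was the lowest at 8.33%, against 38.9% in muscle, 25% in P5_2iL, 27.8% in P5_2iL_F and 12.7% in P5_a2iL_1. The tile before Hoxd8, at chr2:74703001-74704000, rested on 3 cytosines and had 66.7% in muscle, 55.6% in P5_LCDM_1 and 16.7% to 33.3% in the other teratomas.

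Of the 9 genes, Hoxd3 was the one where the teratomas other than P5_LCDM_1 lay farthest below muscle. Hoxd3, which shapes the neck vertebrae, spans Hoxd4 in the annotation used, and its window holds 535 cytosines. P5_LCDM_1 averaged 45.6%, muscle 35.7%, P5_2iL 17.1%, P5_2iL_F 15.4% and P5_a2iL_1 15.8%. The other teratomas were 18.6, 20.3 and 19.8 points apart from muscle on the low side, and P5_LCDM_1 9.93 points on the high side. Without the 115 cytosines of the Hoxd4 window P5_LCDM_1 averaged 43.5%, muscle 34.5%, P5_2iL 11.4%, P5_2iL_F 11.7% and P5_a2iL_1 13.2%.

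The upstream start of Hoxd3, at chr2:74712001-74713000 with 31 cytosines, was at most 2.52% in any library. Within the gene, muscle and P5_LCDM_1 were methylated together in several tiles where the rest were low. At chr2:74733001-74734000, with 46 cytosines, muscle had 52.2%, P5_LCDM_1 51.2%, P5_2iL 5.08%, P5_2iL_F 9.38% and P5_a2iL_1 8.76%. Over the 7 CpGs of that tile read on both strands, P5_LCDM_1 was 34.6 points above muscle on one strand and 10.7 on the other. At chr2:74734001-74735000, with 10 cytosines, muscle had 84.7%, P5_LCDM_1 79.6%, P5_2iL 21.8%, P5_2iL_F 29.2% and P5_a2iL_1 28.5%. The same order was found at chr2:74739001-74740000, with 15 cytosines, where muscle had 46.8%, P5_LCDM_1 37.2% and the others 8.85% to 14.2%. At chr2:74747001-74748000, near the end of the gene with 18 cytosines, muscle had 75.5%, P5_LCDM_1 79.6% and the others 37.7% to 44.9%. Over the 5 CpGs of that tile read on both strands, the difference between P5_LCDM_1 and muscle was -34.2 points on one strand and -18.2 on the other.

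In other tiles of Hoxd3, P5_LCDM_1 also lay above muscle. At chr2:74736001-74737000, with 53 cytosines, it had 58.9%, muscle 34.95%, P5_2iL 8.37%, P5_2iL_F 8.85% and P5_a2iL_1 10.2%. Its excess there was 26.3 points on one strand and 28.0 on the other. At chr2:74740001-74741000, with 88 cytosines, it had 46.3%, muscle 18.0%, P5_2iL 10.1%, P5_2iL_F 8.75% and P5_a2iL_1 9.95%. The order was the same at chr2:74746001-74747000, where 72 cytosines gave 54.3% in P5_LCDM_1, 42.3% in muscle and 17.3% to 23.3% in the others. With 29 cytosines, chr2:74732001-74733000 had 36.2% in P5_LCDM_1, 23.6% in muscle and 4.21% to 11.1% in the others. Over CpGs read on both strands, chr2:74740001-74741000 kept the order on each strand. The tiles at chr2:74746001-74747000 and chr2:74732001-74733000 kept it on the second strand and not on the first. The P5_LCDM_1 excess was 22.6 and 29.5 points on the strands of the former, and 29.9 and 7.81 on those of the latter.

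Other tiles of Hoxd3 did not have this order. At chr2:74714001-74715000, with 16 cytosines, P5_LCDM_1 was the lowest at 3.32%, against 7.68% in muscle and 19.2% in P5_a2iL_1. At chr2:74738001-74739000, with 33 cytosines, P5_LCDM_1 had 17.9% and sided with P5_2iL (8.60%), P5_2iL_F (10.8%) and P5_a2iL_1 (10.8%) against muscle at 48.4%. The difference between P5_LCDM_1 and muscle was -28.9 points on one strand and -32.0 on the other. At chr2:74741001-74742000, with 6 cytosines, muscle had 25% and P5_LCDM_1 19.7%, while the others had 0% to 4.17%.

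Hoxd4, a gene of the hindbrain and neck vertebrae, averaged 39.8% in muscle, 37.9% in P5_2iL, 29.0% in P5_2iL_F, 25.3% in P5_a2iL_1 and 53.1% in P5_LCDM_1 over 115 cytosines, all of which also belong to the Hoxd3 window. It was the most methylated member in every library. At its start, from 1000 bases before to 500 after, 8 cytosines averaged 14.4% in muscle, 14.7% in P5_2iL, 10.7% in P5_2iL_F, 9.92% in P5_a2iL_1 and 56.8% in P5_LCDM_1. The tiles there, chr2:74721001-74722000 (3 cytosines) and chr2:74722001-74723000 (5 cytosines), had 45.8% and 63.5% in P5_LCDM_1, against 7.58% and 18.5% in muscle.

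Further along the gene the libraries changed places. The tile at chr2:74726001-74727000 overlaps Mir10b, a microRNA gene of the cluster, and its 8 cytosines had 22.9% in muscle, 49.03% in P5_2iL, 39.1% in P5_2iL_F, 34.8% in P5_a2iL_1 and 64.5% in P5_LCDM_1. All teratomas were above muscle there, and the P5_LCDM_1 excess was 43.6 points on one strand and 40.3 on the other. In the next tile, with 60 cytosines at chr2:74727001-74728000, P5_LCDM_1 had 38.1%, muscle 18.7% and the others 7.37% to 15.7%. The tile after it, with 28 cytosines at chr2:74728001-74729000, was highest in muscle at 84.7%, with 71.3% in P5_LCDM_1, 70.9% in P5_2iL, 57.8% in P5_2iL_F and 51.2% in P5_a2iL_1. A tile with 4 cytosines, at chr2:74723001-74724000, had 91.7% in P5_2iL, 75% in muscle, 65% in P5_LCDM_1, 56.7% in P5_2iL_F and 50% in P5_a2iL_1. At chr2:74729001-74730000, with 6 cytosines, every library had at least 71.1%, and P5_LCDM_1 had 92.7%.

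Hoxd1, which in mice works in pain-sensing neurons, was low in all libraries, at 1.74% in muscle, 6.50% in P5_2iL, 6.76% in P5_2iL_F, 3.53% in P5_a2iL_1 and 5.42% in P5_LCDM_1 over 174 cytosines. P5_LCDM_1 did not stand apart. The excess at this end of the cluster lay in Haglr, a long noncoding RNA gene that lies between Hoxd3 and Hoxd1. At chr2:74750001-74751000, with 37 cytosines, P5_LCDM_1 had 46.4%, muscle 8.56%, P5_2iL 18.3%, P5_2iL_F 14.4% and P5_a2iL_1 15.4%. At chr2:74753001-74754000, with 56 cytosines, P5_LCDM_1 had 35.7%, muscle 15.9%, P5_2iL 1.81%, P5_2iL_F 4.02% and P5_a2iL_1 3.11%, which made it the 1 tile beyond Hoxd3 with the arrangement. The tile between Hoxd3 and these, at chr2:74749001-74750000 with 60 cytosines, was highest in muscle at 9.48%.

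**Figure D4:**
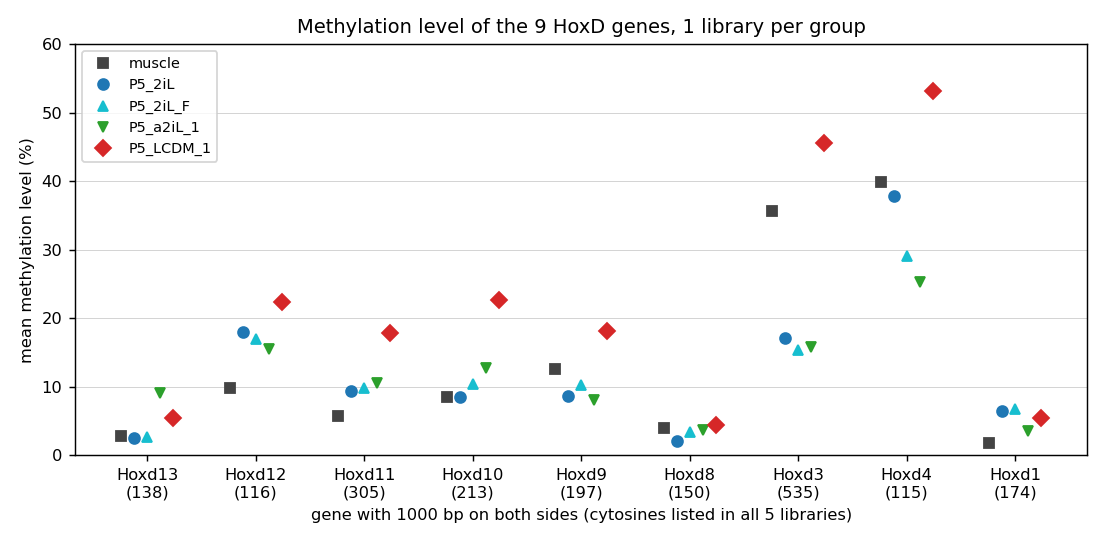
Mean methylation level (vertical axis, percent) of the 9 HoxD genes, each with 1000 bp on both sides, in the 5 libraries, 1 point per library, with the number of shared cytosines in brackets. P5_LCDM_1 is the highest library at every gene but Hoxd13 and Hoxd1, and reaches 53.1% at Hoxd4.

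Averaged over whole genes, 0 of the 9 members differed from muscle by 25 points in either direction in any teratoma. Among all 17295 measured gene windows, 3.72% were this much higher in P5_2iL, 3.24% in P5_2iL_F, 1.69% in P5_a2iL_1 and 1.58% in P5_LCDM_1, and 0.491%, 0.439%, 0.33% and 0.838% were this much lower. By 10 points or more, P5_LCDM_1 was higher at 4 members, Hoxd12, Hoxd11, Hoxd10 and Hoxd4, against 9.97% of all genes. P5_2iL was 10 points lower at Hoxd3 alone (1.98% of all genes), and P5_2iL_F (1.82%) and P5_a2iL_1 (2.04%) at Hoxd3 and Hoxd4. P5_LCDM_1 was the highest of the 5 libraries at 7 of 9 members, against 15.7% of genes, and stood above muscle with the rest below at 4, Hoxd9, Hoxd8, Hoxd3 and Hoxd4, against 2.68%. The overlapping windows of Hoxd3 and Hoxd4 make 2 of these 4 share cytosines. The median difference of the members was 9.93 points in P5_LCDM_1, where that of all genes was 0.935, and -0.418, -0.232 and 1.79 in P5_2iL, P5_2iL_F and P5_a2iL_1, where those of all genes were 3.30, 2.95 and 1.70.

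At most gene starts the P5_LCDM_1 level was less than 10 points above muscle. Of 10 annotated starts of the 9 genes, 9 held 3 or more cytosines. P5_LCDM_1 was 10 points or more above muscle at 2 of them, Hoxd4 and Hoxd12, against 11.3% of all starts. The Hoxd4 start rested on 8 cytosines. At the 67 cytosines of the Hoxd12 start P5_LCDM_1 had 25.4%, muscle 11.7%, P5_2iL 19.7%, P5_2iL_F 17.6% and P5_a2iL_1 16.8%. P5_2iL, P5_2iL_F and P5_a2iL_1 were each 10 points above muscle at 1 start, that of Hoxd10, against 13.8%, 13.2% and 11.5% of all starts. Over the CpGs of that start read on both strands, the excess of P5_2iL and of P5_a2iL_1 was not kept on each strand. In 9 tiles, with 793 of the cytosines between them, every library stayed under 10%. Grouped by the number of shared cytosines, the 22 tiles with under 20 had a median of 49.9% in P5_LCDM_1 and 25.2% in muscle. The 15 tiles with 50 or more had 19.5% and 9.48%. The number of shared cytosines is not the CpG density of a tile, which was not measured.

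The other 3 teratomas had similar levels along the cluster. The median over tiles of the gap between the highest and the lowest of them was 5.06 points, against 8.33 over all autosomal tiles. Their median tile levels in HoxD were low, at 11.1% in P5_2iL, 9.83% in P5_2iL_F and 11.5% in P5_a2iL_1, which leaves less room for a gap. Whether the 3 teratomas were closer to each other than at other tiles of low level was not tested. Set against them, P5_LCDM_1 was 25 points or more above P5_2iL in 19 tiles (2.58% of all), above P5_2iL_F in 21 (2.44%) and above P5_a2iL_1 in 20 (2.93%). In the other direction it was as far below P5_2iL in 1 tile (15.3%), below P5_2iL_F in 0 (13.4%) and below P5_a2iL_1 in 0 (8.28%). It exceeded each of the 3 by this much in 16 of 49 tiles, against 0.645% of all tiles, and 8 of the 16 held 20 or more cytosines.

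The other Hox clusters served as the closest loci for comparison. In HoxA the mean difference from muscle was 9.95 points in P5_2iL, 9.40 in P5_2iL_F, 8.11 in P5_a2iL_1 and 9.79 in P5_LCDM_1. In HoxB the differences were 6.78, 6.35, 4.07 and 9.98 points, and in HoxC 2.67, 3.21, 6.48 and 3.54, in the same order. Of the 4 clusters only HoxD had teratomas with a mean below muscle. P5_LCDM_1 lay above muscle with the rest below in 5 of 58 tiles of HoxA (8.62%), 4 of 77 of HoxB (5.19%) and 1 of 59 of HoxC (1.69%), and in 28.6% of HoxD tiles. The P5_LCDM_1 excess over muscle was also found in HoxA and HoxB. There 14 of 58 and 14 of 77 tiles were called higher in it, and 0 and 3 lower. Of autosomal tiles, 9.35% were called higher in it and 6.74% lower. In HoxC 2 of 59 tiles were called higher and 4 lower. P5_LCDM_1 was the highest of the 5 libraries at 4 of 11 genes of HoxA, 7 of 10 of HoxB and 3 of 9 of HoxC, against 15.7% of all genes. It was 10 points or more above muscle at 5 genes of HoxA, 4 of HoxB and 0 of HoxC, against 9.97% of all genes. With 1 library per group, the difference between clusters was not tested.

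**Figure D5:**
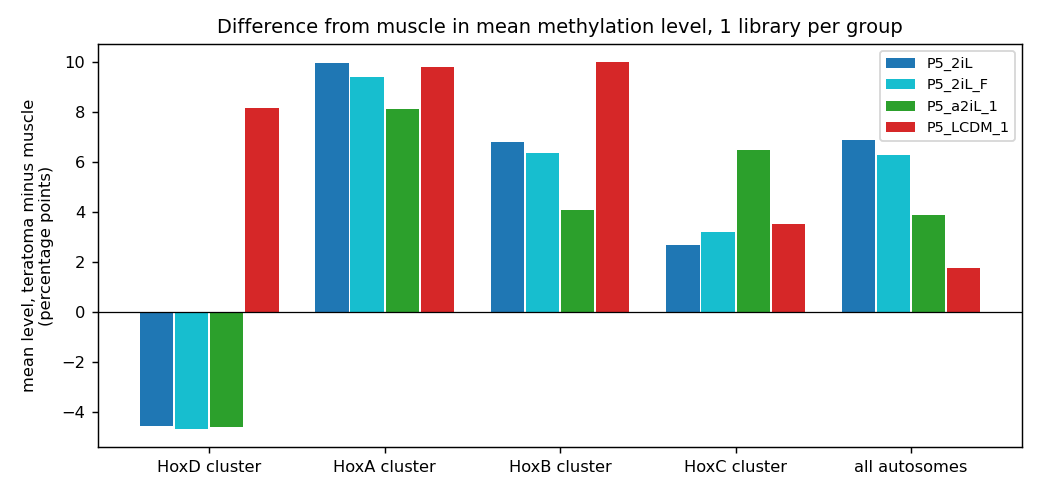
Mean methylation level of each teratoma minus muscle (vertical axis, percentage points) over the 4 Hox clusters and over all autosomes, 1 bar per library. In HoxD the bar of P5_LCDM_1 points up by 8.16 points and the other 3 point down, to between -4.55 and -4.64, while every other bar points up.

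Single paralogues in the other clusters showed both kinds of order. Hoxb5 had the order of Hoxd3, since P5_LCDM_1 had 32.8%, muscle 29.3%, P5_2iL 4.75%, P5_2iL_F 3.51% and P5_a2iL_1 6.89%. It was the 1 gene of HoxB past 25 points, in P5_2iL_F. Hoxa9 had 19.3% in P5_LCDM_1, 12.8% in muscle, 4.69% in P5_2iL, 5.81% in P5_2iL_F and 9.97% in P5_a2iL_1. P5_LCDM_1 thus lay above muscle with the rest below at 1 gene of HoxA, 1 of HoxB and 0 of HoxC, against 2.68% of all genes. Over the CpGs read on both strands, Hoxb5 and Hoxa9 kept this order on the second strand and not on the first. The P5_LCDM_1 difference from muscle at Hoxb5 was -3.89 points on the first strand and 9.07 on the second. The P5_a2iL_1 difference at Hoxa9 was 3.41 and -7.66. In HoxA 4 of 11 genes, Hoxa3, Hoxa4, Hoxa5 and Hoxa6, were 25 points or more higher in P5_2iL and P5_2iL_F, and 3 of them in P5_a2iL_1. Hoxa5 had 31.6% in muscle, 92.2% in P5_2iL, 80.5% in P5_2iL_F, 78.7% in P5_a2iL_1 and 51.8% in P5_LCDM_1, so that P5_LCDM_1 was the teratoma nearest to muscle there.

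Of 10 neighbouring or embedded genes measured, 0 passed 25 points in any teratoma. Evx2 alone passed 10 in P5_LCDM_1, which is 1 of 10 genes against 9.97% of all genes. This homeobox gene beside Hoxd13 had 4.93% in muscle, 6.70% in P5_2iL, 9.13% in P5_2iL_F, 9.43% in P5_a2iL_1 and 17.9% in P5_LCDM_1 over 414 cytosines. Haglr, whose cytosines are part of the cluster values above, averaged 10.2% in muscle, 9.11% in P5_2iL, 8.86% in P5_2iL_F, 7.28% in P5_a2iL_1 and 17.3% in P5_LCDM_1. The remaining neighbours differed little, for example Lnpk, a gene of the endoplasmic reticulum, with 6.29% in muscle and 4.64% in P5_LCDM_1, and Mtx2, a mitochondrial import gene, with 5% and 5.11%. Hoxd3os1, Atf2, Atp5g3, Hnrnpa3 and Nfe2l2 differed from muscle by less than 5 points in every teratoma. Chn1, farther away, had 26.2% in P5_LCDM_1 and 20.4% to 21.2% in the other 4 libraries.

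Polycomb and Trithorax genes code for proteins that act on Hox clusters. Of 14 such genes 13 were measured, and 0 of them had the order of libraries seen at Hoxd3, where 2.68% of all genes have it. By 10 points, 0 of them were higher in any teratoma, against 21.7% of all genes in P5_2iL, 19.2% in P5_2iL_F, 10.9% in P5_a2iL_1 and 9.97% in P5_LCDM_1, and 0 were lower. Meis1, a gene for a cofactor of Hox proteins, had 12.1% in muscle, 23.9% in P5_LCDM_1 and 28.4% in P5_a2iL_1, so that P5_LCDM_1 was not the highest library there.

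Outside the Hox clusters, the genes whose 4 differences came nearest to those of the HoxD cluster were sought among 15449 genes with 20 or more cytosines. The 5 nearest were Unc13d, Actrt3, Nlgn2, Ccdc106 and Bloc1s3, at a root mean square distance of 1.11, 1.11, 1.18, 1.32 and 1.39 points over the 4 differences. Unc13d, which codes for a protein of granule release, had 57.8% in muscle, 53.9% in P5_2iL, 53.1% in P5_2iL_F, 53.2% in P5_a2iL_1 and 68.1% in P5_LCDM_1. Bloc1s3, a gene of lysosome-related organelles, had 10.6%, 4.74%, 5.53%, 6.31% and 16.4% in the same order. The likeness is over 4 values from 5 single libraries and says only that such differences also occur elsewhere.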

How the data were processed

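Reduced representation bisulfite libraries of muscle and 4 teratomas were used, 1 of each. The deposited files give a methylation level in percent for each CpG cytosine, 1 line per strand, without counts of reads. The tools named in the submitters' processing notes are Trim Galore 0.6.4 and Bismark, and the build is mm10. No Bismark version, minimum of reads or call setting is given in the sources used here. The labels' protocols describe PCR followed by gel size selection, so reads may be PCR copies of the same molecule, and their share was not measured. Of 48924 listed positions in 3140 RefSeq promoters of GRCm38.p6, 100% fell in a CpG when counted from 1, against 56.2% when counted from 0, and positions were counted from 1.

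Levels were averaged over cytosines listed in all 5 libraries, each with equal weight, in tiles of 1 kb, genes with 1000 bp on both sides, and starts from 1000 bp before to 500 bp after. Windows needed 3 cytosines, and a difference of 25 percentage points was called. This is a size rule and not a test. The same rules over all autosomes gave the share called. The spread per cytosine was the root mean square difference between strands of a CpG divided by the square root of 2. Runs of exactly 2 neighbouring listed positions were taken as such a pair. Gene positions came from RefSeq, without sex chromosomes. Named were all members, 10 neighbours, called members of the other Hox clusters, the 5 genes nearest in differences, and tiles past 25 points or among the 8 with the highest P5_LCDM_1 excess. Further tiles (with many shared cytosines, near a limit or with the arrangement) and genes were named after their values were seen. The members and lists were chosen with earlier results of these data known. Other tile sizes, grids, cytosine sets, minimums, single strands and thresholds were tried. The code, for pandas 2.3.3, NumPy 2.4.6 and matplotlib 3.10.9 under Python 3.11.15, was tested on simulated data. The result of 1 further list is not reported here.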

Additional observations from a re-analysis of the deposited data

Results flagged for a closer look

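Over the HoxD cluster the mean level of P5_LCDM_1 was above muscle, by 8.16 percentage points, and those of the other 3 teratomas were below, so the libraries moved in opposite directions. The same opposite directions were found in 4 gene windows. The excess of P5_LCDM_1 was 13.3 points at Hoxd4, 9.93 at Hoxd3, 5.52 at Hoxd9 and 0.440 at Hoxd8. At Hoxd9 the opposite directions were lost without the flanks, where the other teratomas lay 3.37, 3.61 and 3.20 points above muscle, and with the first strand of each CpG alone, where P5_LCDM_1 was at -0.34 points. At Hoxd8 the opposite directions were lost on each strand. P5_LCDM_1 was at -6.01 points with the first strand. With the second strand P5_2iL, P5_2iL_F and P5_a2iL_1 lay above muscle, by 2.03, 1.20 and 2.65 points. At that gene P5_LCDM_1 was also at -0.004 points without the flanks, and at -0.29 with all cytosines each library lists. With 1 library per group these differences were not tested, and the windows of Hoxd3 and Hoxd4 overlap.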

How the results depend on the processing

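With each measured tile given equal weight, the cluster mean differed from muscle by -8.77 points in P5_2iL, -8.08 in P5_2iL_F and -8.70 in P5_a2iL_1. The 4 cluster differences kept their sign under every setting tried. The number of tiles 25 points below muscle depended on the setting. In P5_2iL it was 5 with either strand alone, 18 with tiles of 500 bp, 18 at a threshold of 10 points and 4 at 40 points. In P5_2iL_F it was 5 with either strand, 18 with 500 bp, 7 with tiles of 2 kb, 19 at 10 points and 3 at 40 points. In P5_a2iL_1 it was 5 with the first and 6 with the second strand, 7 with 2 kb and 4 at 40 points. P5_LCDM_1 was called higher in 6 tiles of 2 kb, in 7 when the grid was shifted by 500 bp, in 22 at 10 points and in 3 at 40 points. The arrangement with P5_LCDM_1 above muscle and the other 3 below held in 7 tiles with the first strand and 9 with the second, in each case of 32 measured tiles, in 8 of 32 with tiles of 2 kb, and in 8 of 49 with 5 points each way. Among the 9 genes it held at 2 with the first strand alone and at 2 without flanks. The single strands and the tiles of 2 kb left 32 measured tiles where the main setting had 49, and the cause of the lower counts was not tested. Of 252 alternative values of gene windows, 24 changed sign. For P5_LCDM_1, 4 of 63 did, all at Hoxd8 and Hoxd9. No paired analysis was possible because each group holds 1 library, and for the same reason no replicate could be left out. A coverage minimum could not be set, since the files hold no read counts.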
